A study of Mus musculus with 15 samples.

Results

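Regulatory T cells (Tregs) of the spleen of dDC mice were compared with those of control mice. The comparison rests on the 3 spleen libraries labelled dDC and the 3 labelled control, 6 of the 15 RNA-seq libraries of the study. The other libraries are from Tregs of the thymus (5) and the peritoneal cavity (4). Of the 45706 genes in the table, 18423 had enough counts to be tested. Both groups were adult mice on the C57BL/6 background that carried a reporter of Foxp3, and Foxp3-positive cells were sorted through it. The dDC animals belong to the line named RelB-dDC and the controls are their littermates. The sample titles mark the control libraries wt, read here as wild type. The name is read here as mice lacking RelB in dendritic cells; what drives the deletion, the age in weeks and any pooling of animals are not stated in the labels used. Nothing in the labels says that the libraries of a group came from separate animals, so p-values measure only the spread between libraries, which may be technical. In the main edgeR fit this spread was estimated over all 15 libraries, those of the thymus and peritoneal cavity included.

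Tregs are T cells that restrain immune responses and depend on the transcription factor Foxp3. In the spleen, resting Tregs share homing and survival genes with naive T cells, such as Bcl2, whereas effector Tregs carry adhesion receptors, the costimulatory receptor Icos and S100 proteins. Some effector Tregs carry the interleukin 33 receptor (Il1rl1) and are known as precursors of the Tregs that reside in tissues. RelB is a subunit of NF-kappaB that dendritic cells use in their maturation, and dendritic cells present antigen to Tregs.

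Total counts in the 6 spleen libraries lay between 17213541 and 24332044. Rank correlations over genes were 0.898 to 0.928 between libraries of a group and 0.900 to 0.923 between groups. The first 2 principal components of the spleen libraries, with 25.6 and 21.2 percent of the variance, did not separate the groups, and the third (21.1 percent) did. T cell markers and Foxp3 were read in every library, beside markers of other cells that are described further below. The T cell markers summed to between 8872 and 9883 CPM (read counts put on a common scale with TMM factors) in each library, and Foxp3 itself was at 208, 179 and 229 CPM in control libraries 1, 2 and 3 and at 256, 241 and 209 in the dDC libraries. Relb, at 22.3 ± 1.45 CPM in controls and 23.9 ± 2.28 in dDC (SD, n = 3), does not check the genotype, since these are T cells and not dendritic cells.

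By value, splenic Tregs of dDC mice had higher levels of the surface receptors Nrp1 and Itgb1, the interleukin 18 receptor Il18r1, the transcription factor Rora and the metabolic enzymes Cpt2 and Hk2. They had lower levels of the survival gene Bcl2, the resting T cell genes Arhgap15, Ly6c1 and Foxp1, and several genes of cholesterol synthesis. None of these differences passed the test across all genes with edgeR. After Benjamini-Hochberg adjustment 0 of 18423 genes (0 percent) had an edgeR quasi-likelihood p below 0.05, and the smallest adjusted p was 0.111, that of Nrp1. At an unadjusted p below 0.05 there were 786 genes (4.27 percent), where 5 percent are expected by chance, 339 higher (1.84 percent) and 447 lower in dDC (2.43 percent). With limma 0 genes passed (smallest adjusted p 0.0506, 891 at an unadjusted p below 0.05). With DESeq2 33 of the 15349 genes given an adjusted p passed (0.215 percent), 15 higher and 18 lower, with 942 at an unadjusted p below 0.05. Of the 33, 24 averaged 5 CPM or more in the higher group. Some of the others rest on few libraries. Gm43585 was at 5.53 CPM in control 2 and at 0 in the other spleen libraries, with a DESeq2 adjusted p of 3.53e-05. Of the 2220 genes with a mean of at least 100 CPM, the median size of the log2 difference was 0.13, and 4 differed by more than 1 on that scale: Bcl2, Itgae, Fos and the model gene C230085N15Rik.

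**Figure D1:**
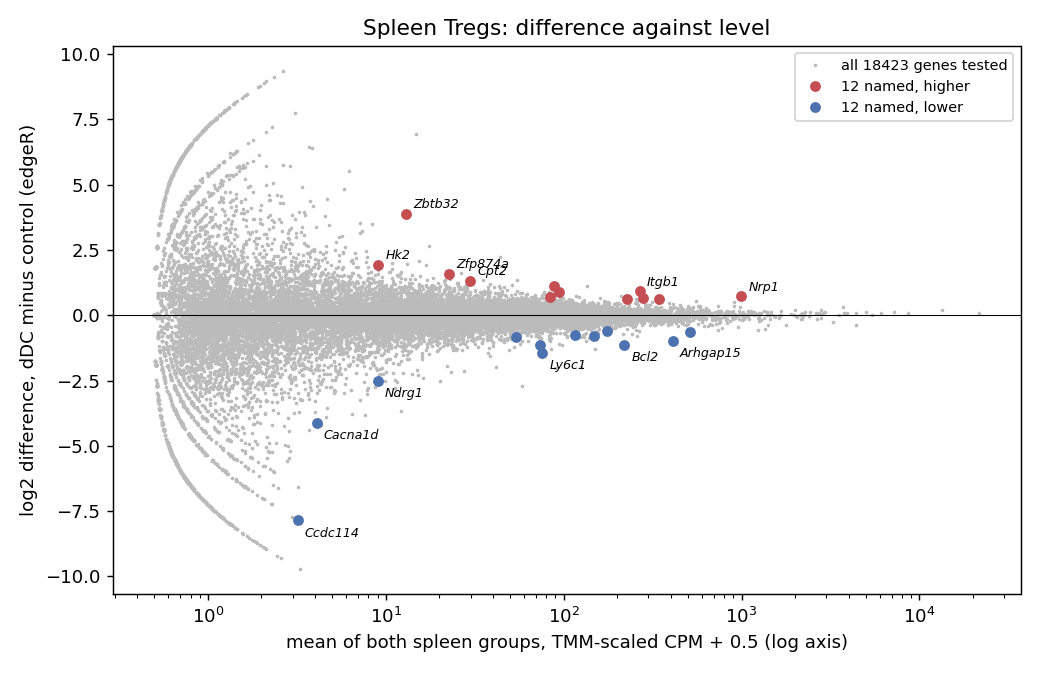
Log2 difference between dDC and control spleen Tregs (edgeR, vertical axis) against the mean level of both groups in TMM-scaled CPM + 0.5 (horizontal log axis) for the 18423 genes tested. Coloured points are the 12 higher and 12 lower genes chosen by p, without model genes and pseudogenes; the grey points fan out at low levels, while Nrp1 and Itgb1 lie at the upper edge of genes of like level.

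The 24 genes described next are the 12 lowest by p on each side, among genes that averaged 5 CPM or more in the group with more RNA, leaving out model genes, pseudogenes, Xist and Tsix, and Y-linked, antigen receptor, mitochondrial and ribosomal protein genes. The 24 were chosen by p, so that their separation between groups is a property of the choice and no added evidence. In all 24 the ranges of the groups did not overlap, which held for 10.1 percent of all tested genes. With DESeq2 17 of the 24 passed. The last genes within the choice were Hk2 (edgeR unadjusted p = 0.00234) and Foxp1 (unadjusted p = 0.00249). The next in line were Dym and Cd72, at log2 differences of 1.57 and -0.73 and unadjusted edgeR p of 0.00263 and 0.00266.

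**Figure D2:**
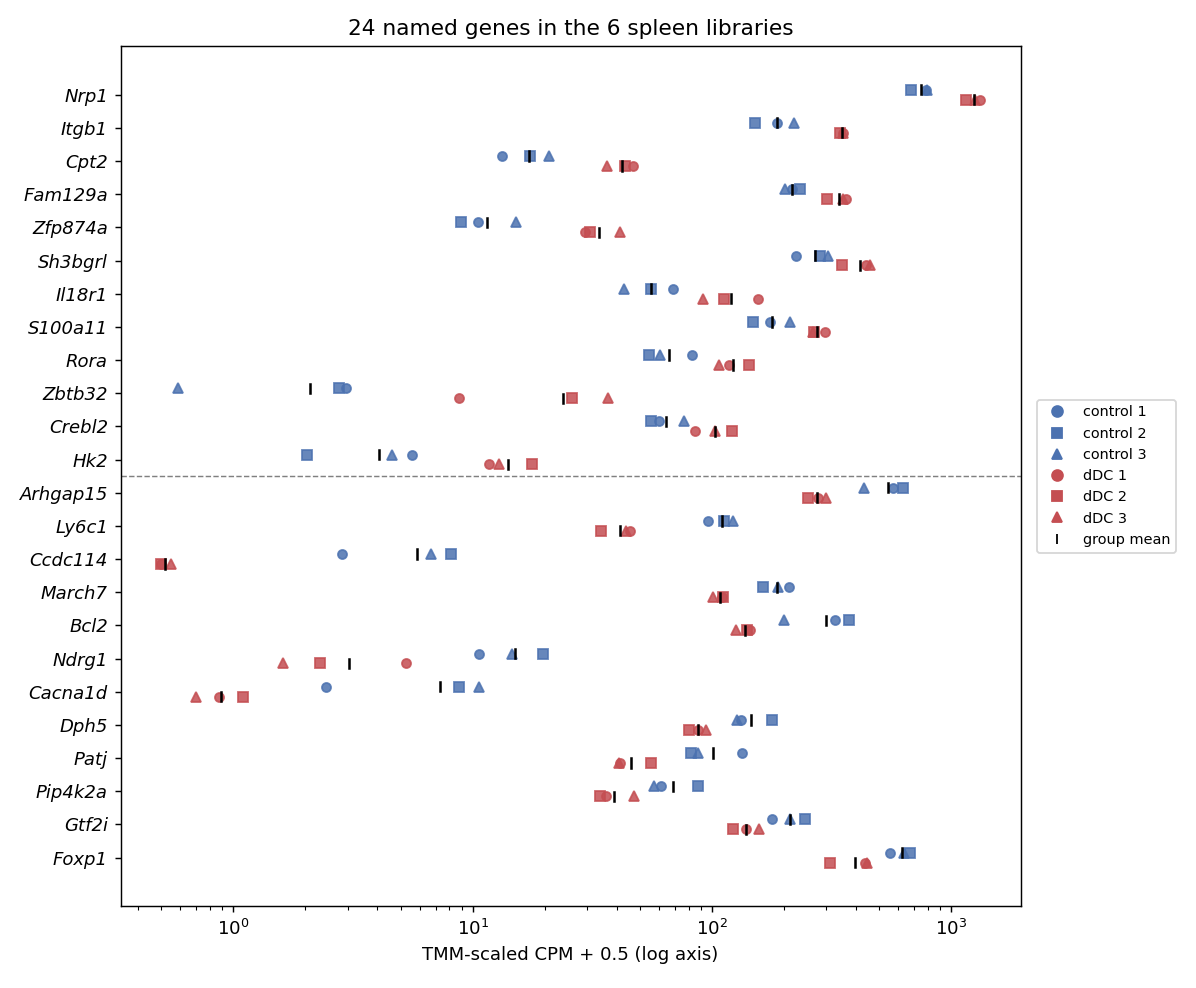
Level in each of the 6 spleen libraries (TMM-scaled CPM + 0.5, log axis) of the 24 genes chosen by p, without model genes and pseudogenes, 12 higher in dDC above the dashed line and 12 lower below it. Blue symbols are control and red symbols dDC libraries, and black ticks are group means; no red symbol lies within the blue range of its gene.

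Nrp1 and Itgb1, 2 receptors of the cell surface, had the smallest p of all genes in the edgeR fit of all 15 libraries. Nrp1 (neuropilin 1, ENSMUSG00000025810, mm10 chromosome 8, 128359073 to 128505462), a co-receptor for semaphorins and VEGF and a marker of Tregs made in the thymus, was at 785, 681 and 792 CPM in the 3 control libraries and at 1319, 1152.5 and 1261.5 CPM in the 3 dDC libraries. Every dDC library lay above every control library, and the gap between the groups was wider than the spread within either. The ratio was 1.65-fold (log2 0.73, SE 0.09), with an edgeR adjusted p of 0.111 and a DESeq2 adjusted p of 7.16e-09. Itgb1 (integrin beta 1, ENSMUSG00000025809, chromosome 8, 128685654 to 128733200), the common beta chain of the fibronectin, collagen and laminin receptors, was at 186, 151 and 221 CPM in controls and at 353, 343 and 354 in dDC. The dDC libraries were nearly alike, and the controls were lower and more spread. This is 1.88-fold (log2 0.91, SE 0.14; edgeR adjusted p = 0.255, DESeq2 adjusted p = 3.58e-06).

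Around these receptors, other members of their families were not uniformly higher. In the list of 21 integrin genes, which also holds the partner genes Tln1, Fermt3 and Ilk, 12 members had a log2 difference above 0. The median of the list was 0.05, beside 48.4 percent above 0 and a median of -0.01 over all genes. Itgae (integrin alpha E, or CD103, ENSMUSG00000005947, chromosome 11, 73090583 to 73147446), which binds E-cadherin, was at 79.3, 83.0 and 92.8 CPM in controls and at 195, 164 and 195 in dDC. All dDC values lay far above all control values, yet the edgeR adjusted p was 1 (log2 1.12, SE 0.45, unadjusted p = 0.0281). Itgb8, whose product helps to activate latent TGF-beta, went the other way by value, with 75.7, 118 and 56.1 CPM against 30.4, 50.8 and 46.5 (log2 -0.97, unadjusted p = 0.0974). Of the 14 tested semaphorin receptors, ligands and plexins, 6 were above 0 (median -0.09). Sema4a, a semaphorin that binds neuropilin 1, was at 28.7, 38.1 and 32.8 CPM in controls and at 27.4, 12.6 and 11.6 in dDC (log2 -0.95, unadjusted p = 0.0391).

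Genes of tissue-resident and effector Tregs were mostly higher by value, without any passing edgeR. All gene lists were drawn up with earlier results of these data known, so their counts describe the values and are no test. Of the 25 genes of the tissue Treg list 18 had a log2 difference above 0 (median 0.31), 6 lay above the control range in every dDC library, against 4.94 percent of all genes, and 1 lay below it, against 5.19 percent. Il18r1 (ENSMUSG00000026070, chromosome 1, 40465552 to 40500854), the receptor for interleukin 18, was at 68.1, 55.3 and 42.6 CPM in controls and at 155, 112 and 91.0 in dDC. The lowest dDC library, dDC 3, lay well above the highest control. Its log2 difference was 1.11 (SE 0.24; edgeR adjusted p = 0.823, DESeq2 adjusted p = 0.00814).

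Its neighbour on the chromosome, Il1rl1 (ST2, the interleukin 33 receptor, chromosome 1, 40429570 to 40465415), was at 42.7, 12.97 and 9.72 CPM in controls and at 85.3, 55.3 and 58.6 in dDC. Control 1 was well above the other 2 controls, and still below every dDC library (log2 1.61, SE 0.48, edgeR adjusted p = 1). Without control 1 the log2 difference of Il1rl1 in the spleen was 2.55 (edgeR adjusted p = 0.240), and without the other libraries in turn it went down to 1.25. Rora (ENSMUSG00000032238, chromosome 9, 68653786 to 69388246), a nuclear receptor of tissue Tregs and type 2 lymphoid cells, was at 82.4, 54.0 and 60.0 CPM against 118, 142 and 107 (log2 0.90, SE 0.20; edgeR adjusted p = 0.905). Bmp7, a growth factor of the TGF-beta family, was at 22.1, 23.4 and 13.4 CPM against 55.8, 61.3 and 31.5 (log2 1.34). The lone member below the control range was Cxcr6, a chemokine receptor, at 76.5, 56.4 and 52.0 CPM against 41.8, 33.0 and 26.9 (log2 -0.86, unadjusted p = 0.0231). Other members of the program overlapped between the groups: Gata3 had a log2 difference of 0.48, Klrg1 of 0.24 and Ccr8 of -0.08.

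Of the 30 genes of the effector Treg list 20 were above 0 (median 0.15), 6 lay above the control range (4.94 percent of all genes did) and 1, the chemokine receptor gene Cxcr3, below it (5.19 percent did). S100a11 (ENSMUSG00000027907, chromosome 3, 93520488 to 93526287), a calcium-binding protein, was at 175, 148 and 211 CPM in controls and at 296, 266 and 264 in dDC. The groups did not overlap (log2 0.63, SE 0.14; edgeR adjusted p = 0.885). Ebi3, a subunit of interleukins 27 and 35, was at 37.0, 21.1 and 35.9 CPM against 69.9, 79.4 and 60.5 (log2 1.16, unadjusted p = 0.0033). The galectin Lgals1 (0.41), the large scaffold protein Ahnak (0.34) and S100a4 (0.81) were also separate between the groups. Icos was at 489, 371 and 630 CPM against 641, 666 and 618, so that dDC 3 fell within the control range (log2 0.37). In the wider list of 20 S100, annexin and galectin genes 15 were above 0 (median 0.20), beside 48.4 percent of all genes, and 5 above the control range, beside 4.94 percent. These were S100a4, S100a10, S100a11, Anxa1 and Lgals1. The median of the effector list was not steady: it was 0.03 without dDC 2 and 0.35 without control 3.

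Genes of naive or resting T cells were mostly lower by value. This list, too, was drawn up with earlier results known. It holds Arhgap15, Ly6c1, Bcl2 and Foxp1, which are also among the genes chosen by p. Of the 25 genes 19 had a log2 difference below 0, against 51 percent of all genes, the median was -0.32, and 11 lay below the control range in every dDC library, against 5.19 percent of all genes, and 0 above it, against 4.94 percent. Among the 11 were Bach2, Satb1, S1pr1, Bcl2, Foxp1, Ly6c1, Igfbp4, Dapl1, Actn1 and Arhgap15. Arhgap15 (ENSMUSG00000049744, chromosome 2, 43748824 to 44395953), whose product restrains the GTPase Rac, was at 572, 631 and 434 CPM in controls and at 277, 251 and 299 in dDC. Its dDC libraries lay close together, well under the lowest control (log2 -0.98, SE 0.17; edgeR adjusted p = 0.460, DESeq2 adjusted p = 6.89e-05). Bcl2 (ENSMUSG00000057329, chromosome 1, 106538178 to 106714274), which protects cells from death, was at 328, 375 and 200.2 CPM against 144, 140.5 and 126. Control 3 was the lowest of the controls and still above all dDC libraries (log2 -1.14, SE 0.25; edgeR adjusted p = 0.823, DESeq2 adjusted p = 0.00421).

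Ly6c1 (ENSMUSG00000079018, chromosome 15, 75044018 to 75048830), a surface antigen of resting and memory T cells, was at 96.0, 112 and 123 CPM in controls and at 44.8, 33.9 and 43.3 in dDC (log2 -1.44, SE 0.26; edgeR adjusted p = 0.590). It has a near-identical copy, Ly6c2, so the split of reads between them is uncertain. Foxp1 (ENSMUSG00000030067, chromosome 6, 98925338 to 99522721), a transcription factor that maintains quiescence, was at 554, 677 and 636 CPM against 437, 312 and 446 (log2 -0.64, SE 0.17; edgeR adjusted p = 1). For both genes the ranges were apart, and for Foxp1 dDC 2 was the lowest library. Further members had separate ranges as well. Bach2, a repressor of effector differentiation, was at 43.8, 42.8 and 60.2 CPM against 30.7, 19.7 and 30.5 (log2 -0.86), the chromatin organiser Satb1 at 120, 149 and 128 against 55.7, 78.2 and 89.4 (log2 -0.83), and the growth factor binding protein Igfbp4 at 10.96, 23.1 and 20.9 against 3.05, 2.84 and 3.98 (log2 -2.47). Ccr7 (log2 -0.38), Lef1 (-0.23), Tcf7 (-0.01), Klf2 (0.09) and Il7r (0.16), other genes of resting T cells, overlapped between the groups.

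**Figure D3:**
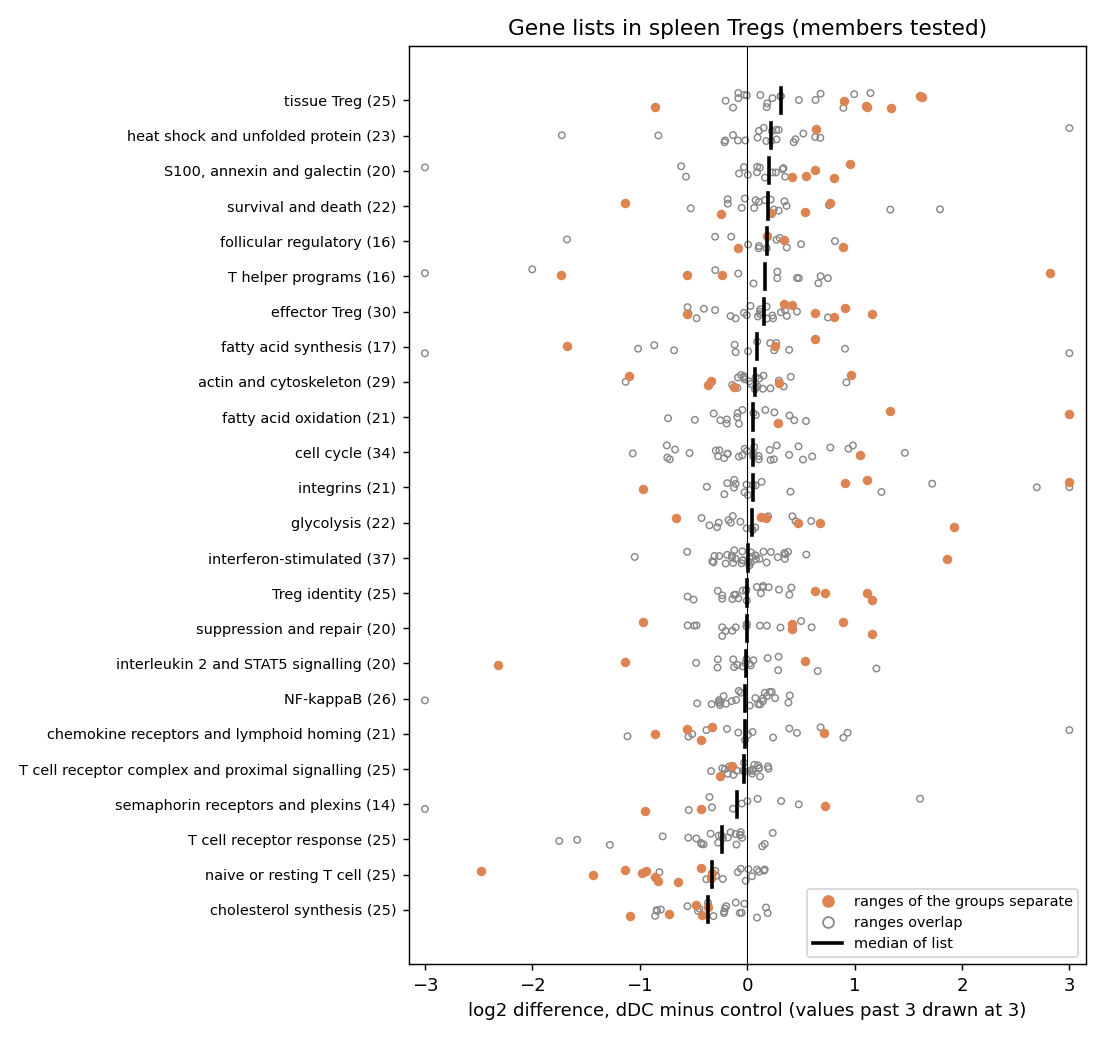
Log2 difference between dDC and control spleen Tregs (horizontal axis) for the tested members of 24 gene lists, ordered by their median (black bar), with the number of members in parentheses. Filled points are genes whose group ranges do not overlap; the cholesterol and resting T cell lists have the lowest medians (-0.36 and -0.32) and the tissue Treg list the highest (0.31).

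Genes of the cholesterol synthesis list were lower by value almost throughout. Of the 25 tested genes 22 had a log2 difference below 0 (median -0.36), against 51 percent of all genes and their median of -0.01. Of the 25, 5 lay below the control range (among them Fdft1, Insig1, Mvd and Sqle), against 5.19 percent of all genes, and 0 above it, against 4.94 percent. Fdft1, the enzyme that makes squalene, was at 57.7, 56.7 and 72.2 CPM in controls and at 26.7, 42.5 and 43.5 in dDC. Its groups did not overlap, and dDC 1 was the lowest library (log2 -0.73, SE 0.28, unadjusted p = 0.0226, edgeR adjusted p = 1). Insig1, the sterol sensor that holds SREBP in the endoplasmic reticulum, was at 32.5, 42.4 and 34.2 CPM against 20.1, 30.2 and 27.9 (log2 -0.48, unadjusted p = 0.0521). Hmgcs1, the synthase at an early step of the pathway, did not share the direction (log2 0.18), with dDC 1 and dDC 3 high at 86.0 and 82.9 CPM and dDC 2 low at 29.1. The median of the list was -0.22 without control 1.

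The promoters of these genes are known to hold sterol regulatory elements beside CCAAT boxes, the sites of the factors SREBP and NF-Y. In the 250 bases before the start site (RefSeq, GRCm38.p6), the letters CCAAT on either strand were found in 17 of the 18 listed genes with a promoter in the table (94.4 percent), against 37.5 percent of all 27025 genes. The letters TCACNCCAC on either strand were found in 1 of the 18, Hmgcs1, against 1.23 percent of all genes; in Hmgcs1 the matches of the 2 motifs do not overlap. A match describes the letters only. Parts of 4 promoters are shown because they hold these letters in genes of the list, 5′ to 3′ along the gene, with CCAAT or its complement ATTGG and, in Hmgcs1, the match to TCACNCCAC in capitals.
Insig1, chr5:28071171-28071225, plus strand: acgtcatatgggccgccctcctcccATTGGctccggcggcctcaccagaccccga
Msmo1, chr8:64733604-64733763, minus strand: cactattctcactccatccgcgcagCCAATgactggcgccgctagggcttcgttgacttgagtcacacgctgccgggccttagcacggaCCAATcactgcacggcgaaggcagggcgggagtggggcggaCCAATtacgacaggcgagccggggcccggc
Nsdhl, chrX:72918387-72918520, plus strand: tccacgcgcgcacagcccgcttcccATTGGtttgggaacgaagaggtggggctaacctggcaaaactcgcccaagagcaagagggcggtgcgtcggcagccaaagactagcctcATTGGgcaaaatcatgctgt
Hmgcs1, chr13:119690101-119690335, plus strand: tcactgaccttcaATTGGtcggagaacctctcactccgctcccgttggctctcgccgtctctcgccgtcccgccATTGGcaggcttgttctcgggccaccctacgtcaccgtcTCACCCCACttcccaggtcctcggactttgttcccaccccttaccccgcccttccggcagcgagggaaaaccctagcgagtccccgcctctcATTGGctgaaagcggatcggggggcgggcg
Msmo1 and Nsdhl, which remove methyl groups from sterol intermediates, had log2 differences of -0.45 and -0.46, and in both the groups overlapped.

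Genes of fatty acid and sugar metabolism were mixed, with single enzymes set apart. Cpt2 (ENSMUSG00000028607, chromosome 4, 107903981 to 107923610), the carnitine transferase of the inner mitochondrial membrane that admits long-chain fatty acids to oxidation, was at 12.8, 16.9 and 20.3 CPM in controls and at 46.5, 42.8 and 36.1 in dDC. The lowest dDC library was well above the highest control (log2 1.33, SE 0.26; edgeR adjusted p = 0.693, DESeq2 adjusted p = 0.0011). Hk2 (ENSMUSG00000000628, chromosome 6, 82725025 to 82774454), the hexokinase that starts glycolysis, was at 5.08, 1.52 and 4.08 CPM against 11.2, 17.2 and 12.4. Its level was low in all libraries, and the groups were apart (log2 1.93, SE 0.50; edgeR adjusted p = 1). Acaca, the carboxylase that commits carbon to fatty acid synthesis, was at 15.1, 20.4 and 10.8 CPM against 2.191, 6.83 and 5.44 (log2 -1.68, unadjusted p = 0.0072). Fasn, the fatty acid synthase that acts after it, was at 55.1, 51.1 and 63.3 CPM against 98.9, 81.3 and 82.7 (log2 0.63, unadjusted p = 0.0317). The 2 enzymes of the same route thus lay on opposite sides of their controls. As lists, neither route stood out: 11 of 21 genes of fatty acid oxidation were above 0 (median 0.06), 10 of 17 of fatty acid synthesis (median 0.09) and 12 of 22 of glycolysis (median 0.05). In the glycolysis list 5 genes lay above the control range, beside 4.94 percent of all genes. They were the glucose transporter Slc2a3 (log2 0.48), Hk2, Aldoa (0.17), Pgam1 (0.68) and Pkm (0.13). Below it lay 1, Gapdh (-0.66), beside 5.19 percent.

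The genes that define Tregs did not differ between the groups beyond their spread. Foxp3 had a log2 difference of 0.20 (SE 0.17), the interleukin 2 receptor chain Il2ra of -0.27 (SE 0.17), the inhibitory receptor Ctla4 of -0.23 (SE 0.15), the receptor Tnfrsf18 (GITR) of 0.15 and the Ikaros family factor Ikzf2 (Helios) of -0.01 (SE 0.12), each with an edgeR adjusted p of 1 and overlapping ranges. Of the 25 genes of the Treg identity list 12 were above 0. Above the control range were 4, beside 4.94 percent of all genes: Nrp1, Itgae, Ebi3 and Cd83, an activation marker (log2 0.63). Below it were 0, beside 5.19 percent.

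Genes that respond to the T cell receptor were lower by value in 22 of 25 cases (median -0.24), without any separate ranges, and here 1 library decided the sign. Fos, an immediate early transcription factor, was at 109, 503 and 23.9 CPM in controls and at 132, 101 and 28.5 in dDC. Control 2 was far above all the others; the log2 difference of -1.28 became 0.40 without it, and the median of the list became 0.01. The genes of NF-kappaB signalling were evenly divided (13 of 26 above 0, median -0.02, none separate), as were those of interferon responses (20 of 37, median 0.01) and of the cell cycle (18 of 34, median 0.06). Mki67, a proliferation marker, was at 64.4, 21.4 and 62.4 CPM against 70.8, 58.5 and 96.3, with overlap (log2 0.61). Among survival genes Bcl2 stood below its controls, while Bcl2l1 (Bcl-xL) lay above them at 72.2, 61.5 and 85.2 CPM against 108, 102 and 109 (log2 0.54, unadjusted p = 0.487, so that edgeR gives it a wide error). Mcl1 (0.29) and the death effector Bcl2l11 (-0.52) overlapped.

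The remaining genes with the smallest p belong to no one process. Higher in dDC were Fam129a, a gene of the stress response, at 215, 234 and 202 CPM against 362, 303 and 353 (log2 0.65, SE 0.13; edgeR adjusted p = 0.823), and Sh3bgrl, for a small thioredoxin-like protein, at 224, 283 and 305 against 443, 351 and 457 (log2 0.62, SE 0.14; edgeR adjusted p = 0.823). In both, dDC 2 was the lowest of the dDC libraries and still above every control. The zinc finger gene Zfp874a (log2 1.595) and Crebl2, a regulator related to CREB (log2 0.69), were higher as well. Zbtb32, a zinc finger repressor of activated lymphocytes, was at 2.45, 2.26 and 0.0842 CPM in controls and at 8.28, 25.5 and 36.3 in dDC (log2 3.88, SE 0.92; edgeR adjusted p = 1). The dDC libraries of this gene differed among themselves by more than 4-fold.

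Lower in dDC was March7, a ubiquitin ligase, at 210, 163 and 190 CPM against 110, 111 and 101 (log2 -0.80, SE 0.17, edgeR adjusted p = 0.823). So was Gtf2i, a general transcription factor, at 178, 246 and 213 against 139, 122 and 157 (log2 -0.61). Dph5, an enzyme of diphthamide synthesis (log2 -0.74), the polarity scaffold Patj (-1.15), the lipid kinase Pip4k2a (-0.82) and the stress gene Ndrg1 (-2.50) were lower too. Cacna1d, a calcium channel subunit that overlaps Chdh so that reads of the 2 cannot be told apart, was at 1.94, 8.29 and 10.2 CPM against 0.374, 0.598 and 0.194 (log2 -4.11). Ccdc114, a gene of motile cilia, was nearly absent from dDC libraries. It was at 2.34, 7.61 and 6.19 CPM in controls and at 0, 0 and 0.0486 in dDC, from 323 counts against 1. The ratio of control to dDC, from the pooled counts of each group scaled by library size, was 325. Its 95 percent interval of 57.9 to 12870 covers counting error only. The edgeR log2 difference was -7.86 (edgeR adjusted p = 0.823, DESeq2 adjusted p = 0.000215).

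The same genes were then looked up in the thymus and peritoneal cavity. Their control libraries are not those of the spleen, although all share the fitted spread. The labels used do not say whether the tissues came from the same mice, so like signs may not be independent. Of the 24 genes 23 had the sign of the spleen in the thymus, beside 52.8 percent of all genes, and 20 in the peritoneal cavity, beside 53.5 percent. For 11 of them the thymus difference had an unadjusted p below 0.05 in the same direction, and for 13 the peritoneal difference, with 1, Hk2, at that p in the opposite direction. Of all 18423 genes 711 and 738 had such a p in the same direction as in the spleen, and 6.57 and 6.36 percent in either. None of these 24 passed after adjustment in either tissue with edgeR. Nrp1 had log2 differences of 0.41 in the thymus and 0.72 in the peritoneal cavity, Itgb1 of 1.17 and 1.02, and Bcl2 of -0.66 and -1.29. Over the 100 genes with the smallest p in the spleen at 5 CPM or more, 79 kept their sign in the thymus and 71 in the peritoneal cavity, beside 55.3 and 55.8 percent of all genes at that level.

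**Figure D4:**
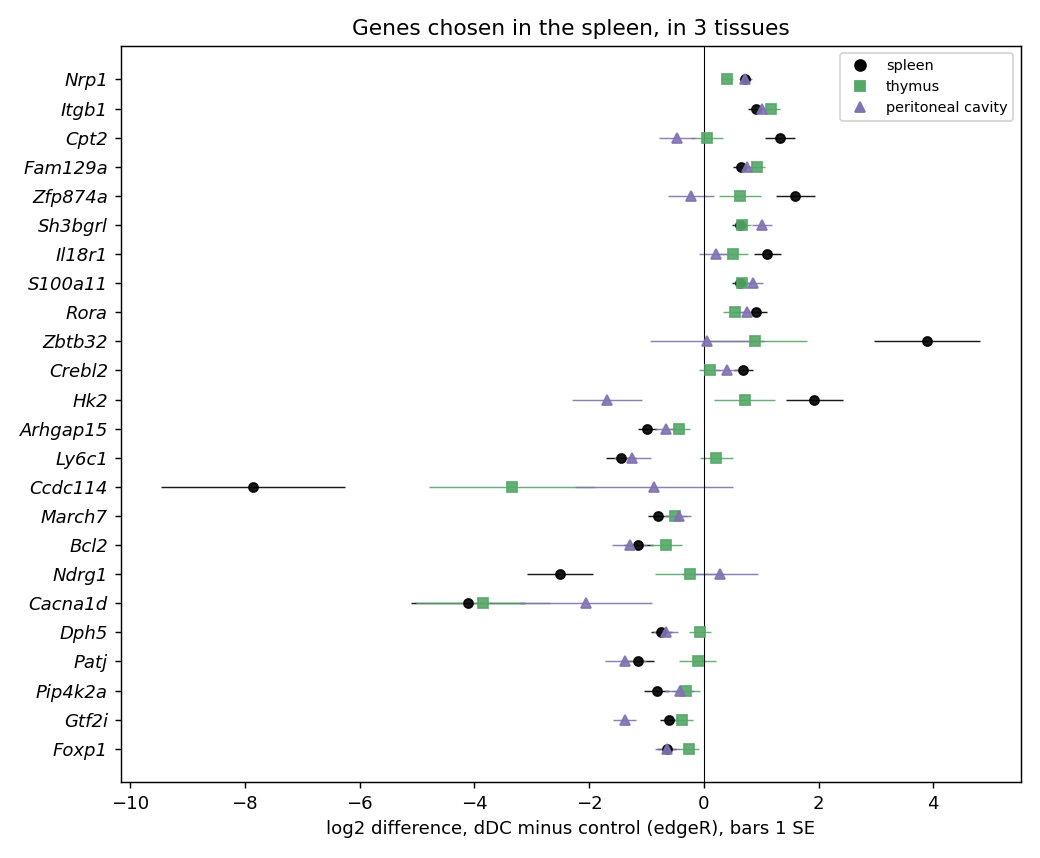
Log2 difference between dDC and control Tregs (edgeR, bars 1 SE, horizontal axis) in spleen (circles), thymus (squares) and peritoneal cavity (triangles) for the 24 genes chosen in the spleen. Most symbols of a gene lie on 1 side of 0; Hk2, Cpt2 and Zfp874a are above 0 in the spleen and below it in the peritoneal cavity.

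A difference between the spleen and the other tissues was tested for each gene, as the spleen difference minus the mean of the thymus and peritoneal differences. With edgeR 0 of 18423 genes (0 percent) passed after adjustment (smallest adjusted p 0.9999; 833 at an unadjusted p below 0.05, 4.52 percent), and with DESeq2 36 did (0.199 percent). Nothing here is therefore called particular to the spleen. The genes with the smallest p of this test in each direction are given as values. Cpt2 had log2 differences of 1.33 in the spleen, 0.05 in the thymus and -0.46 in the peritoneal cavity (unadjusted p of the difference 0.00056). The ubiquitin ligase gene Znrf1 (0.58, -0.76 and -1.11), Dmtf1 (0.41, -0.32 and -0.22), Grk4 (2.37, 0.05 and -1.99) and Manea (0.33, -4.05 and -0.89) were the others with the higher spleen value. Cxcr6, in turn, was at -0.86 in the spleen, 0.91 in the thymus and 1.59 in the peritoneal cavity (unadjusted p of the difference 0.00037). Usp38, a deubiquitinase, had -0.82, 0.51 and 0.70; in the spleen its control libraries, at 62.2, 66.7 and 60.7 CPM, and its dDC libraries, at 37.7, 34.8 and 34.7, were each nearly alike. Map2, Tanc2 and Krt83 completed the group, with peritoneal log2 differences of 6.87, 3.82 and 9.62 beside -1.44, -1.76 and 0.91 in the spleen.

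Markers of other cells were present in the spleen libraries. The 15 B cell markers summed to 1761, 5098 and 3619 CPM in controls and to 1975, 2537 and 3331 in dDC, and all 15 were lower by value in dDC, none with separate ranges. Several genes of the resting T cell list, among them Bach2, Foxp1 and Bcl2, are also expressed by B cells. The median of the resting list was -0.25 without control 2, the library with the highest B cell sum. The macrophage and monocyte markers summed to 183, 409 and 188 CPM in controls and to 643, 451 and 194 in dDC, with 13 of the 14 tested higher by value and none separate. The 9 tested of the 11 erythroid markers summed to 3007 to 8416 CPM in controls and 2434 to 4380 in dDC. Among dendritic cell markers, summed to 115.5 to 151 CPM in controls and 138 to 156 in dDC, Itgax was above its controls, at 0, 1.58 and 0.0421 CPM against 3.79, 8.13 and 10.8. Of these 11 markers 5 were higher and 6 lower by value. Siglech and Batf3 were at 0 in all dDC libraries, and in controls Siglech was at 0.0571, 0 and 0 CPM and Batf3 at 0.514, 0 and 0.0421. The 6 tested of the 10 stromal and endothelial markers summed to 260, 496 and 263 CPM in controls and to 233, 183 and 226 in dDC, without overlap. All 6 were lower by value. Dcn, Lum, Cdh5 and Kdr had too few counts to be tested. Most of that sum was Pecam1, the sole one of the 6 with separate ranges, at 259, 442 and 257.5 CPM against 230, 179 and 223 (log2 -0.60, unadjusted p = 0.0904). The granulocyte genes Elane, Mcpt8 and Retnlg were at 0 in all 6 libraries. The part of these cells in the other results was not tested. In bulk libraries such as these, fewer cells of a type and less RNA per cell cannot be told apart.

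**Figure D5:**
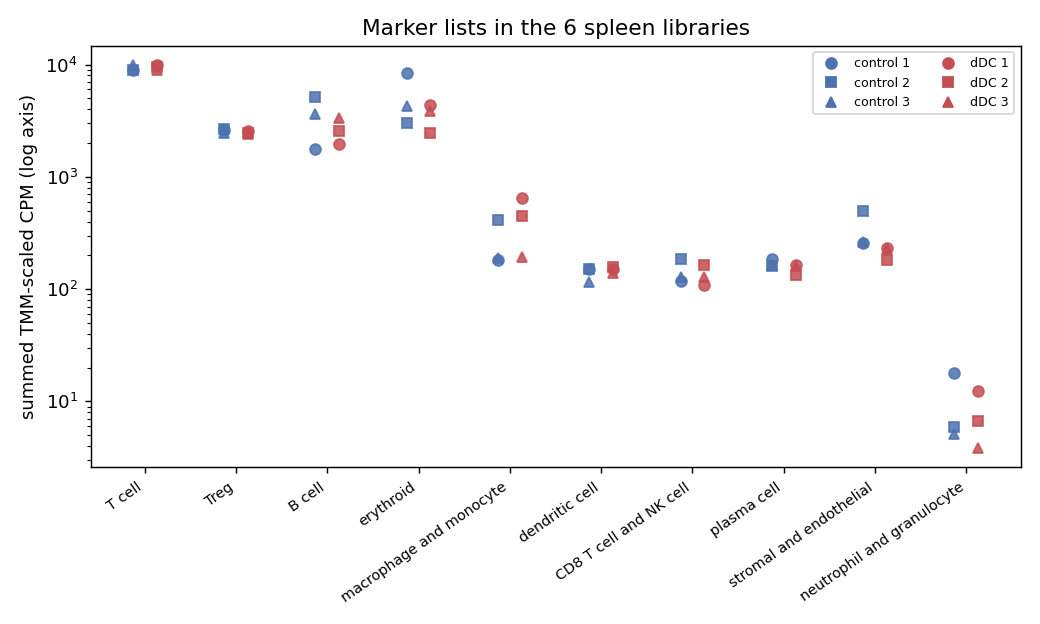
Summed level of the tested marker genes of 10 cell types (TMM-scaled CPM, log axis) in the 3 control (blue) and 3 dDC (red) spleen libraries. The T cell and Treg sums are alike in all 6 libraries; the B cell sum runs from 1761 to 5098 and the macrophage sum from 183 to 643.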

How the data were processed

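Bulk RNA-seq was made from sorted Foxp3-positive cells. Per the labels' protocols, cDNA was made with SmartScribe from a poly-dT primer with template switching, amplified for 12 cycles, sheared, made into NEBnext Ultra DNA libraries and amplified for 15 cycles. The strand is not marked in this chemistry, so overlapping genes share reads, and no molecular identifiers are named. The submitters' processing notes name bcl2fastq 2.19.1, the aligner GSNAP and the read counter featureCounts 1.6.0, with build mm10. How multiply matching reads were handled is not stated in the labels.

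The authors deposited raw counts, whole reads per gene and library, with gene coordinates. Symbols from GENCODE M21 were found for 45143 of 45706 identifiers, and 92 spike-ins (at most 6 counts a library) were left out. The 6 groups of tissue and genotype were taken from the labels. Genes kept by filterByExpr held 99.93 percent of the counts. edgeR 4.0.16 (R 4.3.3) with TMM factors and robust quasi-likelihood fits was run on all 15 libraries (9 residual degrees of freedom), two-sided, with Benjamini-Hochberg adjustment over all tested genes and a threshold of 0.05. Levels are TMM-scaled CPM. Log2 differences and SE are from edgeR, and ratios are 2 to the power of the log2 difference, except that of Ccdc114, which is from pooled counts. The median biological coefficient of variation was 0.55, 0.18 above 100 CPM and 1.29 below 5 CPM. A library is named by its group and its place in the order of library numbers, which does not pair libraries.

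Named genes were the 12 lowest by p on each side at 5 CPM or more, without Y-linked, antigen receptor, mitochondrial, ribosomal protein, pseudogene and model genes, 8 genes taken always, up to 4 of each list, and 5 in each direction for the difference between tissues. Genes named beyond this rule, such as other list members, were chosen after their values were seen. The members, lists and rules were chosen with earlier results of these data known. Alternatives were other size factors, other filters, limma 3.58.1, DESeq2 1.42.0, the spleen libraries alone, a block of neighbouring library numbers and each spleen library left out. The fit was run on simulated data with set fold changes, where the check required only that the log2 differences be recovered. It was no check of the count of genes past the threshold. Results of some genes are not reported here.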

Additional observations from a re-analysis of the deposited data

How the results depend on the processing

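The count of genes past the threshold stayed at 0 in every alternative except DESeq2, which gave 33 in the spleen and 36 for the difference between tissues; the cause was not tested. Leaving out each spleen library gave 0 genes each time, for both counts. Limma with a trend was added after seeing the data. Of 88 named genes 80 kept the sign of their log2 difference in every alternative that gave them a value. The log2 difference of Ikzf2 in the spleen was 0.000906 without a filter and 0.00534 with limma voom. Over single libraries left out, the 8 genes that changed sign were Ikzf2 (-0.082 to 0.034), Hmgcs1 (-0.060 to 0.53), Fos (-1.81 to 0.40), Manea (-0.074 to 0.62), Klrg1 (-0.0011 to 0.49), Ccr8 (-0.14 to 0.012), Tcf7 (-0.098 to 0.035) and Klf2 (-0.083 to 0.31). List medians ranged from -0.38 to -0.25 for resting T cells, 0.29 to 0.49 for tissue Tregs, 0.03 to 0.35 for effector Tregs, -0.39 to -0.22 for cholesterol synthesis and -0.34 to 0.01 for the T cell receptor response. With neighbouring library numbers as a replicate block 0 genes passed (546 at an unadjusted p below 0.05), and the numbers do not pair the libraries: the deviations of neighbours correlated at 0.066, -0.033 and 0.002. With 3 libraries a group and a coefficient of variation of 1.29 below 5 CPM, small differences of weakly expressed genes were not detectable at this depth.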

Other observations

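The following genes were chosen after their values were seen. Nrp1 and Itgb1 are neighbours on chromosome 8, with 180191 bases between them and 1 gene of the table in the gap, which had no reads. Nearby genes overlapped between the spleen groups. Irf2bp2 was at 68.4, 51.4 and 72.9 CPM in controls and at 79.7, 112 and 67.1 in dDC. Gm21399 was at 89.7, 82.9 and 109.8 against 101.5, 98.4 and 100.9. Pard3, nearer to Nrp1 than Irf2bp2, was low, at 0, 0.113 and 0.252 against 0.427, 1.75 and 0.0971. In the peritoneal cavity Pard3 was at 5.09 and 3.04 CPM in controls and at 33.0 and 33.7 in dDC (log2 3.03, edgeR unadjusted p = 0.0869). Its thymus log2 difference was -2.82.

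Satb1 (chromosome 17, 51736187 to 51833290, minus strand) spans 5 gene models on its own strand, and all 5 were lower by value in dDC, as Satb1 was. C230085N15Rik was at 247, 271 and 76.9 CPM in controls and at 45.3, 52.5 and 51.0 in dDC. E430014B02Rik was at 43.7, 24.99 and 32.2 against 8.55, 5.63 and 3.45, with a DESeq2 adjusted p of 0.000454. Gm37248 was at 32.4, 29.3 and 11.1 against 2.78, 7.88 and 4.08. 5830444F18Rik was at 59.8, 64.5 and 8.75 against 11.01, 4.84 and 14.1, where control 3 lay within the dDC range. Gm36931 was at 1.48, 6.15 and 0 against 0 in all 3 dDC libraries. The same models had negative log2 differences in the thymus and the peritoneal cavity.

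All 33 genes that passed in the spleen did so with DESeq2 only, Nrp1 and Itgb1 included. Stab1 and Plpp1 were among them. Stab1, a scavenger receptor of macrophages and endothelium, was at 0.171, 0.0564 and 0 CPM in controls and at 1.02, 5.93 and 13.1 in dDC (DESeq2 adjusted p = 0.00806, edgeR adjusted p = 1). Plpp1, a lipid phosphatase, was at 0.571, 0 and 0.463 against 2.40, 8.58 and 8.25 (DESeq2 adjusted p = 0.0164, edgeR adjusted p = 1).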
